A study of Mus musculus with 9 samples.

Results

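Receptors for vasopressin, oxytocin, cholecystokinin and galanin were followed in sorted cells of mouse pancreatic islets. The 9 genes were the vasopressin receptors Avpr1a, Avpr1b and Avpr2, the oxytocin receptor Oxtr, the cholecystokinin receptors Cckar and Cckbr, and the galanin receptors Galr1, Galr2 and Galr3. They were chosen by name, and all 9 were found by gene identifier among the 55536 genes of the deposited tables. The data were 9 RNA-seq libraries from C57B/L6 mice aged 12 weeks, with 3 libraries for each of 3 subsets. Beta-enriched cells were sorted as CD24 low and CD71 positive, alpha-enriched cells as CD24 low and CD71 negative, and delta-enriched cells as CD24 high. All cells came from islets cultured overnight in RPMI medium with serum, and the groups are enriched fractions from surface-marker gates rather than pure cell types. No label says whether libraries of 1 subset came from separate animals or pools, so p-values measure only the spread between these libraries, which may be technical.

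All of these proteins are G-protein-coupled receptors. As background, the vasopressin receptors V1a and V1b and the oxytocin receptor act mainly through Gq and phospholipase C, which release calcium from stores through IP3 receptors and activate protein kinase C. The V2 receptor acts through Gs and cyclic AMP and is best known from water reabsorption in the kidney. The cholecystokinin receptors are mainly Gq-coupled. Galanin receptors 1 and 3 act through Gi and Go, while galanin receptor 2 acts largely through Gq. In islets, vasopressin and oxytocin are known to stimulate glucagon release, and galanin is known as an inhibitor of insulin release.

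Library totals ran from 5663141 to 9529920 expected counts, which are RSEM's estimated reads per gene. CPM here is TMM-scaled, that is, counts brought to the same library size, and was used to compare 1 gene across libraries. TPM is as deposited, is corrected for gene length, and was used to compare genes. The hormones followed the labels: Ins1 averaged 11154 CPM in beta libraries, Gcg 89394 CPM in alpha libraries and Sst 17221 CPM in delta libraries. Some libraries stood apart. Beta library 2 had 34.4% of its counts on the ribosomal RNA gene CT010467.1, against 3.15% to 5.37% in the other 8, which lowers the TPM of every other gene there. A list of 12 acinar genes, all 12 with counts in alpha and in delta libraries and Rbpjl at 0 in beta libraries, summed to 3202 CPM in delta library 3 and 610 CPM in alpha library 1. Its sums were 70.1 and 86.5 CPM in the other alpha libraries, 210 and 312 CPM in the other delta libraries and 27.7 to 80.2 CPM in beta libraries.

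Relatives within a receptor family can share reads, so the coding stretches in which they are most alike are shown here. They come from GENCODE M21 transcripts on GRCm38, 5′ to 3′ on the coding strand, and capitals mark bases that are the same in every receptor of the block. Each stretch of 60 bases is the most similar that lies within 1 exon and outside the annotated UTRs of any gene. The first 3 lie in exon 1, at chr10:122449684-122449743 (plus strand), chr1:131600566-131600625 (plus strand) and chr6:112488925-112488984 (minus strand), and 45 of the 60 bases are the same in all 3.
Avpr1a: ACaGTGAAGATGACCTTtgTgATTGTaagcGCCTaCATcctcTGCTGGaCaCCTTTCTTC
Avpr1b: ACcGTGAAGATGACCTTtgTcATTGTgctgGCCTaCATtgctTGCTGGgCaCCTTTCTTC
Oxtr: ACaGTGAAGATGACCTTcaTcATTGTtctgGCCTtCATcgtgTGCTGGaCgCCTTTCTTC
The galanin receptor pair lies in exon 2, at chr11:116282975-116283034 and chr15:79042784-79042843 (both plus strand), with 47 of 60 bases the same.
Galr2: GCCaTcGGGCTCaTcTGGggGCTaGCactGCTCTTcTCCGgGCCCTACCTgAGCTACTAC
Galr3: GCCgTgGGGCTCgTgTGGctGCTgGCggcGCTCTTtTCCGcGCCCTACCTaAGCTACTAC
Over whole coding sequences, Avpr1b and Oxtr were identical at 60.2% of aligned bases, Galr2 and Galr3 at 64.0%, and Cckar and Cckbr at 58.5%. The longest run shared by any of the 8 pairs aligned was 23 bases, between Avpr1a and Oxtr, against reads of 75 bases. Galr1 was not aligned, and Avpr2 was aligned but left out of the first block shown.

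Per length, each subset was led by a different pair of receptors. In beta libraries Galr1 had the highest mean level (10.8 ± 2.49 TPM, SD, n = 3), followed by Galr3 (7.07 ± 3.79 TPM, SD, n = 3). The TPM ranges of these receptors overlapped, at 8.65 to 13.5 TPM for Galr1 and 4.57 to 11.4 TPM for Galr3, but Galr1 was above Galr3 in each of the 3 beta libraries. In alpha libraries Oxtr led (17.7 ± 1.65 TPM, SD, n = 3), ahead of Avpr1b (13.1 ± 1.93 TPM, SD, n = 3), without overlap. In delta libraries Oxtr led again (8.43 ± 0.773 TPM, SD, n = 3), with Galr3 next (3.0 ± 0.370 TPM, SD, n = 3), also without overlap. The leading pair held 56.1% and 36.8% of the summed TPM of the 9 receptors in beta libraries, 52.8% and 39.0% in alpha libraries, and 61.9% and 22.03% in delta libraries. Among 22028 protein-coding genes, the mean level of Oxtr in alpha libraries was above 90.7% of genes, that of Avpr1b there above 86.8%, and that of Galr1 in beta libraries above 83.9%. Every other receptor averaged at most 1.18 TPM in each subset. Among these, Galr2 lay above Oxtr in beta libraries without overlap (0.71 to 0.83 TPM and 0.39 to 0.62 TPM), while Galr1, Galr3 and Galr2 overlapped in alpha libraries and Avpr1b, Galr2 and Galr1 in delta libraries.

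**Figure D1:**
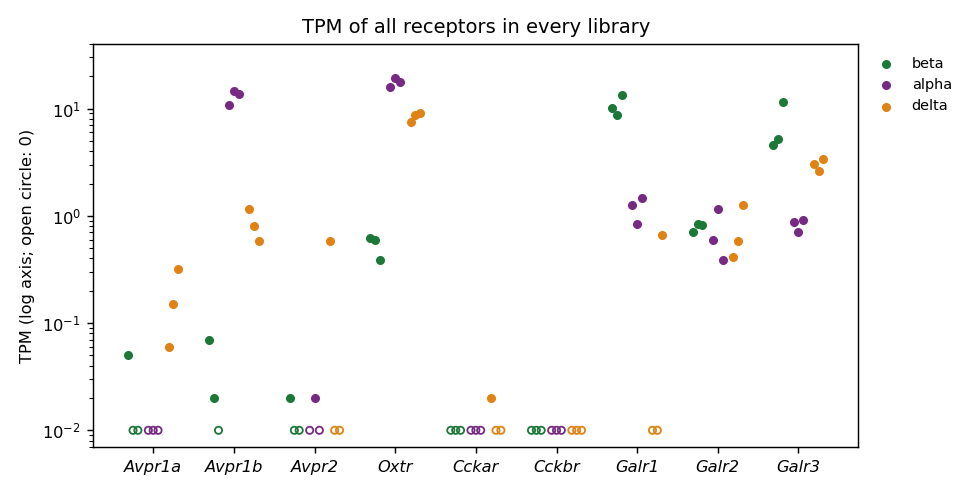
TPM of the 9 receptors in each of the 9 libraries on a log axis, with beta, alpha and delta libraries in 3 colours and open circles for libraries at 0. Oxtr and Avpr1b reach over 10 TPM in every alpha library, Galr1 reaches 8.65 to 13.5 TPM in beta libraries, and Cckbr is at 0 in all 9 libraries.

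Of the 9 receptors, 5 passed the filter on low counts: Avpr1b, Oxtr, Galr1, Galr2 and Galr3. That filter keeps a gene with enough counts in as many libraries as 1 subset holds, so a gene high in a single subset passes on that subset alone, and the counts of calls below are a description. By edgeR's quasi-likelihood test with Benjamini-Hochberg adjustment over 15896 genes, 4 of the 5 tested receptors differed between beta and alpha libraries, where 26.6% of all tested genes did. Between beta and delta libraries it was again 4 of 5, beside 30.6% of all genes, and between alpha and delta libraries 3 of 5, beside 24.3% of all genes. Beta libraries had Galr1 and Galr3 higher and Avpr1b and Oxtr lower than either other subset. Of all tested genes, 14.8% were higher and 11.9% lower in beta than in alpha libraries, and 15.4% were higher and 15.3% lower in beta than in delta libraries. Relative to delta libraries, alpha libraries had Avpr1b and Oxtr higher and Galr3 lower, beside 11% of all tested genes higher and 13.3% lower. The libraries of both subsets did not overlap for 4 of the 5 receptors in each comparison, where this held for 45.5% of all tested genes between beta and alpha, 42.6% between beta and delta and 36.1% between alpha and delta libraries. Adjusted p-values below are from this test unless another tool is named, and every fold change has the first-named subset on top.

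Avpr1b (ENSMUSG00000026432, GRCm38 chr1:131599239-131612000, plus strand), the vasopressin receptor known from pituitary corticotrophs, was highest in the alpha subset. Beta libraries had 0.514, 0.171 and 0 CPM, from 4, 1 and 0 counts. In alpha libraries it had 88.6, 111 and 81.1 CPM, from 778, 882 and 575 counts. Delta libraries had 12.2, 6.35 and 4.37 CPM, from 89, 42 and 34 counts. All alpha libraries were above all delta libraries, which were all above the beta libraries. The log2 fold change of beta over alpha was -8.44 ± 0.51 (SE; adjusted p = 6.09e-08). That of beta over delta was -4.82 ± 0.62 (SE; adjusted p = 5.97e-05), and that of alpha over delta 3.62 ± 0.32 (SE; adjusted p = 2.73e-06), a 12.3-fold difference. Size against the beta subset rests on 5 counts: without beta library 1, which held 4 of them, the log2 values were -9.85 against alpha (adjusted p = 5.23e-07) and -6.23 against delta (adjusted p = 0.000192). On the log2(TPM + 1) scale, which compresses low values, limma gave -0.83 for beta over delta (adjusted p = 0.0330) and -3.76 for beta over alpha (adjusted p = 9.74e-11).

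Oxtr (ENSMUSG00000049112, chr6:112473683-112489943, minus strand), which binds oxytocin, was high in both the alpha and the delta subset. Beta libraries had 4.75, 6.0 and 2.81 CPM. Alpha libraries had 135, 161 and 110 CPM. Delta libraries had 82.6, 77.9 and 70.4 CPM. No libraries of different subsets overlapped, and the gap between alpha and delta was the small one. Beta libraries were 29.8-fold lower than alpha libraries (log2 fold change -4.90 ± 0.21, SE; adjusted p = 3.48e-11) and 17.0-fold lower than delta libraries (-4.08 ± 0.21, SE; adjusted p = 2.19e-10). Alpha libraries were 1.76-fold higher than delta libraries (0.81 ± 0.16, SE; adjusted p = 0.00108). These calls, and those of Avpr1b, held in all 21 alternatives that tested for a difference from 0. Tested against a log2 fold change of 1, the Oxtr call of alpha over delta was lost.

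**Figure D2:**
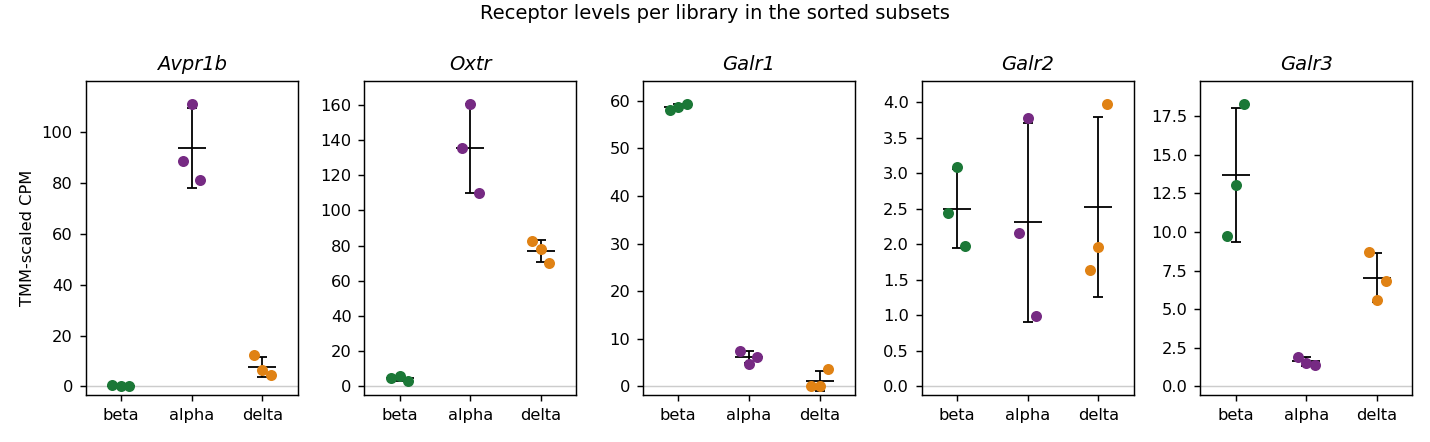
TMM-scaled CPM of the 5 tested receptors in each library, by subset (beta, alpha, delta), each panel with its own axis. Points are libraries, the horizontal line is the mean and the bar is ± 1 SD of 3 libraries; Avpr1b and Oxtr are high in alpha libraries, Galr1 and Galr3 in beta libraries, and Galr2 overlaps in all 3 subsets.

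In a sorted bulk sample, fewer cells of a type and less RNA per cell cannot be told apart. Markers of other endocrine cells had counts in each fraction. The 4 alpha markers Gcg, Irx1, Irx2 and Ttr had counts in every subset, and their summed CPM was 405 to 624 in beta libraries, 80755 to 100240 in alpha libraries and 2024 to 6215 in delta libraries. As a share of the mean CPM in alpha libraries, the glucagon gene Gcg stood at 6.71%, 2.16% and 5.83% in delta libraries 1, 2 and 3, and Ttr at 6.21%, 2.59% and 6.08%. Irx1 stood at 13.9%, 8.08% and 3.99%, and Irx2 at 8.35%, 6.57% and 8.89%. Avpr1b stood at 13.0%, 6.78% and 4.67%, so within the range of the 4 markers in every delta library. Oxtr stood at 61.1%, 57.5% and 52.0%, above all 4 markers in every delta library. Sums of markers of other cells differed between the subsets too. Ppy and Pyy, listed as PP-cell markers, summed to 62.4 to 90.4 CPM in beta, 2733 to 3820 CPM in alpha and 4358 to 6276 CPM in delta libraries. The higher sum in delta than in alpha libraries came from Pyy, at 2882 to 4131 CPM in delta and 1076 to 1411 CPM in alpha libraries. Ppy overlapped between them, at 1476 to 2145 CPM in delta and 1656 to 2409 CPM in alpha libraries. A list of 5 duct markers summed to 84.3 to 185 CPM in beta, 461 to 662 CPM in alpha and 84.4 to 196 CPM in delta libraries, with Sox9 and Cftr at 0 in beta libraries and all 5 with counts in the other subsets. A list of 6 mesenchymal markers summed to 1.28 to 1.54 CPM in beta, 12.8, 47.3 and 15.7 CPM in alpha libraries 1, 2 and 3, and 3.41 to 8.87 CPM in delta libraries, with Col1a1 and Col3a1 at 0 in beta and in delta libraries and Pdgfrb at 0 in delta libraries. Its highest sum was in alpha library 2, which also had the highest Avpr1b and Oxtr levels. In beta libraries the mean shares of the alpha level were 3.34% for Oxtr, 0.244% for Avpr1b, 0.440% for Gcg and 2.70% for Ttr. The part of alpha-cell RNA in the Avpr1b level of delta libraries, and that of PP, duct or mesenchymal cells in the Avpr1b and Oxtr levels, was not tested.

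Avpr1a and Avpr2, the other vasopressin receptors, were near the limit of detection and failed the filter. Avpr1a (ENSMUSG00000020123, chr10:122448499-122453452, plus strand), the receptor of liver and vascular smooth muscle, had 2, 0 and 0 counts in beta libraries, 0 in every alpha library, and 3, 5 and 12 counts in delta libraries. Each delta library thus had more counts than any other library, at 0.410 to 1.54 CPM. With no filter, edgeR gave adjusted p = 0.0312 for alpha against delta and 0.234 for beta against delta, over 29488 genes. Adjusted p-values of that fit are not on the scale of the main test. For beta over alpha, Avpr1b had 1.84e-134 in that fit against 6.09e-08 in the main test, and Galr1 had 0.0304 against 0.0121. Avpr2 (ENSMUSG00000031390, chrX:73892102-73895502, plus strand) had 1, 0 and 0 counts in beta libraries, 0, 1 and 0 in alpha libraries, and 19, 0 and 0 in delta libraries, so all but 2 of its counts came from delta library 1. Avpr2 lies entirely within L1cam and Arhgap4 on the opposite strand, which had 261 and 54.4 counts over all libraries. The libraries were strand-specific, but which strand setting the counting used is not stated in the labels.

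Galr1 (ENSMUSG00000024553, chromosome 18, minus strand), a Gi-coupled galanin receptor, was high in every beta library. Beta libraries had 58.0, 58.6 and 59.4 CPM. Alpha libraries had 7.41, 4.79 and 6.21 CPM. Delta libraries had 0, 0 and 3.598 CPM, from 0, 0 and 28 counts. Thus every beta library was above every alpha library, every alpha library was above every delta library, and delta library 3 alone carried the delta signal. Beta libraries were 9.52-fold higher than alpha libraries (log2 fold change 3.25 ± 0.68, SE; adjusted p = 0.0121) and 45.7-fold higher than delta libraries (5.51 ± 0.84, SE; adjusted p = 0.00225). For alpha over delta the log2 fold change was 2.26 ± 0.92 (SE; adjusted p = 0.131), which did not pass.

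The Galr1 comparisons with delta depended on delta library 3. The other 2 delta libraries had no Galr1 count, and 3 counts over both would be 0.215 CPM. Against that floor the beta mean was at least 273-fold higher and the alpha mean at least 28.5-fold higher. Without delta library 3 the alpha over delta difference passed the test (adjusted p = 7.93e-07), as did beta over delta (adjusted p = 7.17e-10). The call of beta over alpha was lost without alpha library 2 (log2 fold change 3.10, adjusted p = 0.0543), without alpha library 3 (3.26, adjusted p = 0.0528) and with DESeq2's Wald test (3.24, adjusted p = 0.0859), although the difference itself barely moved. With only beta and alpha libraries in the fit the adjusted p was 2.41e-12. Without delta library 3 alone it was 1.04e-08, at a log2 fold change of 3.25.

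Levels of beta-cell markers differed across the same libraries. All 7 beta markers (Ins1, Ins2, Nkx6-1, Mafa, Pdx1, Slc2a2 and Ucn3) had counts in every subset, and their summed CPM was 31897 to 43349 in beta libraries, 2841 to 4108 in alpha libraries, and 203, 266 and 701 in delta libraries 1, 2 and 3. As a share of the mean CPM in beta libraries, Galr1 stood at 12.6%, 8.15% and 10.6% in alpha libraries 1, 2 and 3. Ins1 stood at 10.7%, 6.46% and 7.60% there, and Ins2 at 10.7%, 7.81% and 8.38%, both below Galr1 in each library. Of the 7 markers, 6 stood below Galr1 in each alpha library, with medians of 7.80%, 5.55% and 7.60%, and Nkx6-1 stood above it at 19.7%, 16.5% and 19.9%. In delta library 3, which had the highest acinar sum, Galr1 stood at 6.13%, against 1.77% for Ins1, 1.503% for Ins2, 8.12% for Nkx6-1 and 51.0% for Pdx1. Of the 7 markers, 5 stood below Galr1 there and 2 above it, with a median of 2.015%. Pdx1 stood at 57.5% and 53.1% in delta libraries 1 and 2, where Galr1 was at 0. The part of beta-cell RNA in the Galr1 level of alpha libraries, and that of acinar or beta-cell RNA in delta library 3, was not tested.

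**Figure D3:**
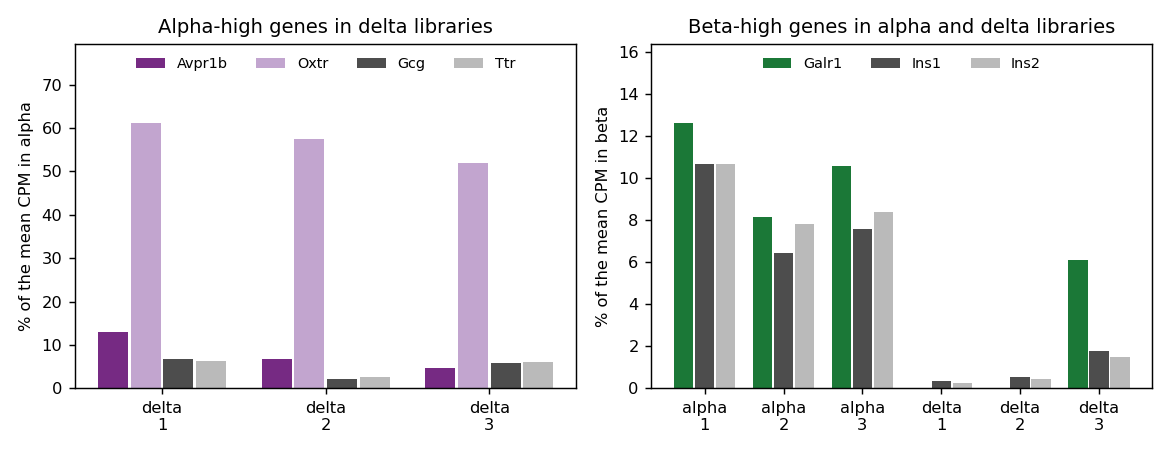
Left, CPM of Avpr1b, Oxtr, Gcg and Ttr in each delta library as a percentage of their mean CPM in alpha libraries; right, CPM of Galr1, Ins1 and Ins2 in each alpha and delta library as a percentage of their mean CPM in beta libraries. Bars are single libraries: Oxtr stays at 52.0% to 61.1% in delta libraries while Gcg stays at 2.16% to 6.71%, and Galr1 in alpha libraries lies at 8.15% to 12.6% beside 6.46% to 10.7% for Ins1.

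Galr3 (ENSMUSG00000114755, chr15:79041885-79043558, plus strand), another Gi-coupled galanin receptor, was lowest in the alpha subset. Beta libraries had 9.76, 13.0 and 18.3 CPM. Alpha libraries had 1.94, 1.51 and 1.41 CPM. Delta libraries had 8.74, 5.59 and 6.81 CPM. The 3 subsets did not overlap, but the lowest beta library and the highest delta library lay close together. Beta libraries were 8.31-fold higher than alpha libraries (log2 fold change 3.06 ± 0.36, SE; adjusted p = 4.02e-06), and alpha libraries were 4.30-fold lower than delta libraries (-2.10 ± 0.36, SE; adjusted p = 0.000278). Both of these calls held in all 21 alternatives that tested for a difference from 0.

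The difference between beta and delta in Galr3 was smaller and less secure, at 1.93-fold (log2 fold change 0.95 ± 0.31, SE; adjusted p = 0.0291). It no longer passed without beta library 2 (0.98, adjusted p = 0.0763), beta library 3 (0.69, adjusted p = 0.203), delta library 2 (0.82, adjusted p = 0.0784) or delta library 3 (0.93, adjusted p = 0.0640). Limma on log2(TPM + 0.1) gave adjusted p = 0.0629. The first 647 bases of Galr3 overlap the end of Gcat, a mitochondrial enzyme of threonine breakdown, on the same strand. Gcat had 10.03, 8.26 and 17.78 counts in beta libraries, 0, 0 and 14.04 in alpha libraries and 0, 3.22 and 18.58 in delta libraries. Galr3 had 76.27, 76.24 and 110.92 counts in beta libraries, 17, 12 and 10.13 in alpha libraries and 64, 37.33 and 52.87 in delta libraries. In alpha library 3 it thus had fewer counts than its neighbour, and how reads were divided between both genes is uncertain.

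Galr2 (ENSMUSG00000020793, chr11:116280939-116283938, plus strand), the galanin receptor that acts largely through Gq, was low in all 3 subsets. Its levels were 2.44, 3.08 and 1.98 CPM in beta libraries, 2.16, 3.78 and 0.988 CPM in alpha libraries, and 1.64, 1.97 and 3.98 CPM in delta libraries. The subsets overlapped throughout. The log2 fold change was 0.11 ± 0.58 for beta over alpha (SE; adjusted p = 0.927), -0.02 ± 0.58 for beta over delta (SE; adjusted p = 0.983) and -0.13 ± 0.57 for alpha over delta (SE; adjusted p = 0.904). Its 7 to 31 counts per library leave wide errors, and the sign changed with the libraries left out.

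**Figure D4:**
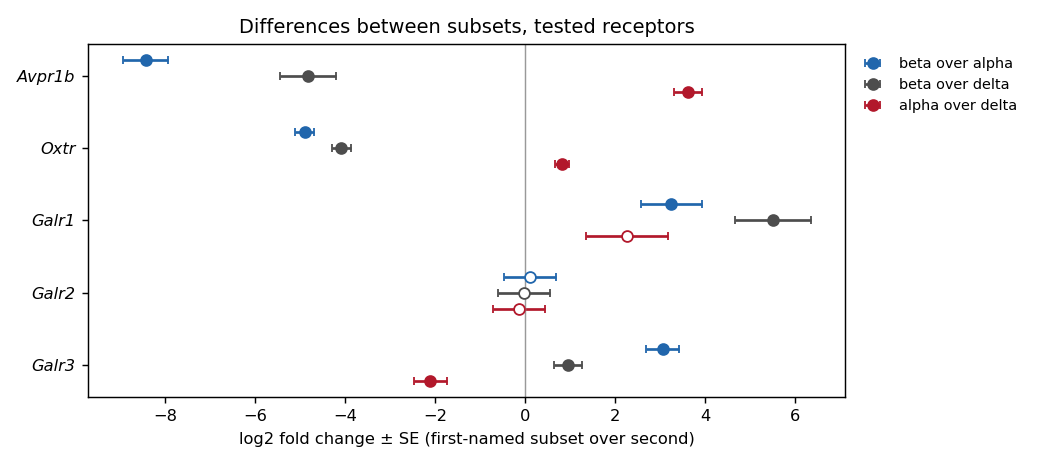
Log2 fold changes of the 5 tested receptors with bars of ± 1 SE, for beta over alpha, beta over delta and alpha over delta; filled points passed edgeR's test at an adjusted p under 0.05 and open points did not. Avpr1b and Oxtr lie left of 0 for both beta comparisons and Galr1 and Galr3 right of it, while all 3 Galr2 points lie within 0.13 of 0.

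The cholecystokinin receptors were at or near 0. Cckbr (ENSMUSG00000030898, chr7:105425731-105470898, plus strand), which also binds gastrin, had 0 counts in all 9 libraries. Cckar (ENSMUSG00000029193, chr5:53697776-53707705, minus strand), which is known from pancreatic acinar cells and the gallbladder, had 1 count, in delta library 1. Cckar had no count in delta library 3, where the acinar sum was 3202 CPM. A count of 0 allows up to 3 counts over a subset, which is 0.152 CPM in beta, 0.126 CPM in alpha and 0.138 CPM in delta libraries, for counting error only.

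The genes whose pattern was most like that of each called receptor were found by Pearson's r of log2(CPM + 0.5) over the 9 libraries, among 12481 tested protein-coding genes. The libraries fall into 3 subsets, so r mostly follows the subset means, and it is given as a description. For Avpr1b these included the adenylyl cyclase Adcy1 (r = 0.991) and the vesicle GTPase Rab3c (0.991). Rab3c averaged 3.92 ± 0.450 CPM in beta libraries, 85.1 ± 3.63 CPM in alpha libraries and 13.4 ± 3.44 CPM in delta libraries (SD, n = 3 each). For Oxtr they were the ETS-family transcription factor Etv1 (r = 0.998), Wwc1 (0.996) and the kinase-anchoring gene Akap17b (0.996). Etv1 averaged 61.0 ± 8.97 CPM in beta libraries, 809 ± 33.2 CPM in alpha libraries and 514 ± 40.4 CPM in delta libraries (SD, n = 3 each). For Galr1 they were Sytl4, which encodes the insulin granule protein granuphilin (r = 0.991), the beta-cell transcription factor Mafa (0.989) and Ins1 (0.987). Those of Galr3 were Heca (r = 0.988), the Wnt pathway agonist Rspo4 (0.985) and the mitochondrial isocitrate dehydrogenase Idh2 (0.985).

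Genes for the ligands were barely counted, and none of the 7 listed passed the filter. Avp and Galp, for vasopressin and galanin-like peptide, had 0 counts in all libraries. Oxt had 1 count in all, in a beta library, and Cck 1 count, in an alpha library. Gast, for gastrin, had 1 count in an alpha library and 2 in a delta library. Gal, for galanin, had 2, 0 and 0 counts in beta libraries, 5, 3 and 1 in alpha libraries, and 0, 0 and 18 in delta libraries, where all 18 came from the library with the highest acinar sum. Spx, for spexin, a ligand of galanin receptors 2 and 3, had 4, 1 and 3 counts in beta libraries, 2, 12 and 4 in alpha libraries, and 4, 0 and 14 in delta libraries.

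Avpr1b and Oxtr act on the Gq branch. Of 8 genes for Gq-family alpha subunits and phospholipase C beta enzymes, 6 were tested. None was higher and 2 were lower in beta than in alpha libraries, 1 was lower in beta than in delta libraries, and 2 were lower in alpha than in delta libraries (26.6%, 30.6% and 24.3% of all tested genes differed in these comparisons). The median log2 fold changes were -0.06, -0.20 and 0.01, beside -0.02, -0.02 and -0.01 over all tested genes. Gnaq, the Gq alpha subunit, averaged 182 ± 4.50 CPM in beta and 229 ± 1.83 CPM in alpha libraries (SD, n = 3 each; log2 fold change -0.34, adjusted p = 0.00618). Plcb4 averaged 46.2 ± 3.31 CPM in beta, 58.1 ± 4.15 CPM in alpha and 123 ± 9.76 CPM in delta libraries (SD, n = 3 each). Its log2 fold change was -0.33 for beta over alpha (adjusted p = 0.0407), a call lost in 11 of 21 alternatives, -1.42 for beta over delta (adjusted p = 3.78e-08) and -1.09 for alpha over delta (adjusted p = 1.04e-06). Under limma on log2 TPM with either pseudocount, the Gnaq call and the alpha over delta call of Plcb4 were lost. Plcb3 was lower in alpha than in delta libraries (-0.79, adjusted p = 0.0190), which was lost in 7 of 21 alternatives.

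IP3 receptors differed by isoform. Of 10 genes for IP3 receptors and protein kinase C, 7 were tested: 5 were higher and 1 lower in beta than in alpha libraries, 3 higher and 1 lower in beta than in delta libraries, and 3 lower in alpha than in delta libraries. Of all tested genes, 26.6%, 30.6% and 24.3% differed in these comparisons. The medians of the list were 0.75, 0.06 and -0.41. Itpr1 averaged 97.5 ± 12.8 CPM in beta, 627 ± 38.7 CPM in alpha and 831 ± 24.0 CPM in delta libraries (SD, n = 3 each). The log2 fold change of Itpr1 was -2.68 for beta over alpha (adjusted p = 5.09e-12) and -3.09 for beta over delta (adjusted p = 8.63e-13). Itpr2 ran the other way, at 61.6 ± 4.96 CPM in beta, 6.37 ± 1.32 CPM in alpha and 5.60 ± 0.955 CPM in delta libraries (SD, n = 3 each). It was higher in beta libraries by 3.27 against alpha (adjusted p = 1.22e-09) and by 3.45 against delta (adjusted p = 6.76e-10) on the log2 scale. Prkce and Itpr3 were lower in alpha than in delta libraries (log2 fold changes -0.69 and -0.77, adjusted p = 0.000137 and 0.000367); each call was lost in 2 of 21 alternatives.

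The Gi and Go alpha subunits, the partners of Galr1 and Galr3, were all tested. Of these 5 genes, 3 were higher and 2 lower in beta than in alpha libraries. Against delta libraries, beta libraries had 2 higher and 1 lower, and alpha libraries 1 higher and 2 lower. Of all tested genes, 26.6%, 30.6% and 24.3% differed in beta against alpha, beta against delta and alpha against delta. The medians of the 5 genes were 0.73, 0.60 and -0.04. Gnai1 averaged 25.3 ± 4.69 CPM in beta, 163 ± 10.7 CPM in alpha and 16.7 ± 6.57 CPM in delta libraries (SD, n = 3 each), and was thus the alpha-high member. The log2 fold change of Gnai1 was -2.68 for beta over alpha (adjusted p = 2.72e-06) and 3.27 for alpha over delta (adjusted p = 6.91e-07). Gnai2 was higher in beta than in alpha libraries (1.13, adjusted p = 3.51e-08) and than in delta libraries (0.67, adjusted p = 1.51e-05), and lower in alpha than in delta libraries (-0.46, adjusted p = 0.000881, lost in 2 of 21 alternatives). Gnai3 was higher in beta than in delta libraries (1.14, adjusted p = 1.02e-05).

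Of the 2 Gs-type genes, Gnas moved in all 3 comparisons. It averaged 472 ± 24.1 CPM in beta, 3002 ± 160 CPM in alpha and 1568 ± 34.0 CPM in delta libraries (SD, n = 3 each). Its log2 fold changes were -2.67 for beta over alpha (adjusted p = 6.60e-13), -1.73 for beta over delta (adjusted p = 5.36e-11) and 0.94 for alpha over delta (adjusted p = 1.35e-07). The other gene, Gnal, passed in none. In the same comparisons, 26.6%, 30.6% and 24.3% of all tested genes differed. The medians of the 2 Gs-type genes were -1.63, -1.31 and 0.32.

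Receptor kinases and arrestins switch off such receptors, and all 7 were tested. Beta libraries had 2 higher and none lower than alpha libraries, and 3 higher and 1 lower than delta libraries; alpha libraries had 2 higher and 1 lower than delta libraries. Of all tested genes, 26.6%, 30.6% and 24.3% differed in these comparisons. The medians of the kinases and arrestins were 0.17, -0.04 and -0.15. Grk5 averaged 113 ± 4.76 CPM in beta, 34.0 ± 2.65 CPM in alpha and 10.2 ± 2.45 CPM in delta libraries (SD, n = 3 each). Its log2 fold changes were 1.73 for beta over alpha (adjusted p = 7.95e-08), 3.47 for beta over delta (adjusted p = 4.58e-11) and 1.74 for alpha over delta (adjusted p = 3.40e-07). Grk3 was higher in beta than in alpha libraries (0.73, adjusted p = 2.99e-05), a call lost in 2 of 21 alternatives. Arrb1, for beta-arrestin 1, averaged 1.06 ± 0.205 CPM in beta, 1.11 ± 0.606 CPM in alpha and 13.3 ± 1.28 CPM in delta libraries (SD, n = 3 each). Both beta and alpha libraries had less Arrb1 than delta libraries, by log2 fold changes of -3.63 (adjusted p = 3.79e-06) and -3.58 (adjusted p = 4.65e-06). Lnpep, an aminopeptidase that cleaves vasopressin and oxytocin, was higher in beta than in alpha libraries by 0.26 (adjusted p = 0.0352), and this call was lost in 12 of 21 alternatives.

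**Figure D5:**
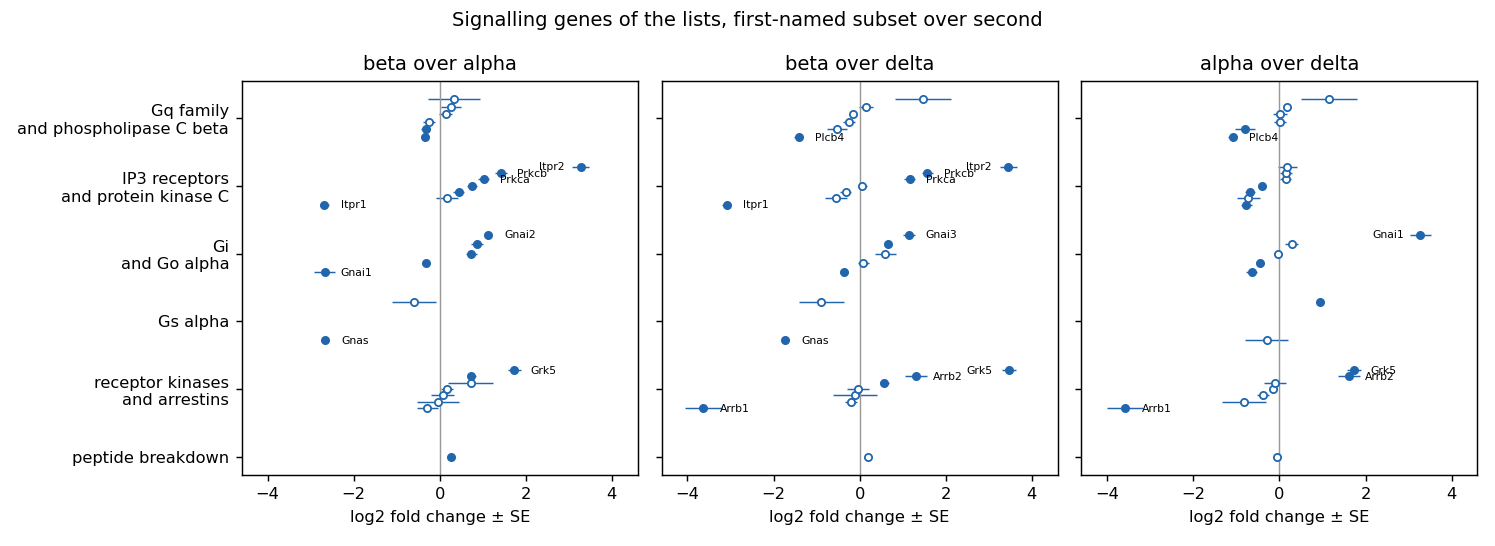
Log2 fold changes with bars of ± 1 SE for the tested genes of the signalling lists, in 3 panels for beta over alpha, beta over delta and alpha over delta; filled points passed edgeR's test at an adjusted p under 0.05. Itpr1 and Itpr2 lie on opposite sides of 0 in both beta panels, and Gnas lies left of 0 in both.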

How the data were processed

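Per the labels' protocols, RNA of sorted islet cells was primed with random primers into strand-specific libraries and sequenced as paired reads of 75 bases. The submitters' processing notes name RSEM, STAR 2.5.2b and the build GRCm38.p6. The authors deposited expected counts and TPM per gene and library, per the file headers; RSEM divides shared reads, and 6.94% to 8.66% of genes per library carried fractional counts. Identifiers of all 55536 genes were matched to GENCODE M21. Expected counts were rounded, filtered with filterByExpr by subset, scaled by TMM and tested with edgeR 4.0.16 under R 4.3.3, whose quasi-likelihood model (robust) held every library and 1 term for each subset. Tests were 2-sided, with Benjamini-Hochberg adjustment at 0.05. Alternatives used DESeq2 1.42.0 and limma 3.58.1, and the fit was checked on simulated data. Coding sequences were aligned with MAFFT 7.526. The receptors and lists were chosen with earlier results of these data known. Of each signalling list, up to 2 genes per comparison are named, those that passed with the smallest p; for each called receptor, the 3 genes with the highest r, of which 1 is not reported here.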

Additional observations from a re-analysis of the deposited data

How the results depend on the processing

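Over 21 alternatives that tested for a difference from 0, 287 of 315 values of the tested receptors kept their direction and side of the threshold. The 14 that changed sign were all of Galr2, and none passed the test. Limma on log2(TPM + 1) and log2(TPM + 0.1) gave 0.059 and 0.19 for Galr2 in beta over delta. Without beta library 2 and delta library 3 together, Galr2 gave -0.074 for beta over alpha, 0.29 for beta over delta and 0.36 for alpha over delta; without alpha library 1 and delta library 3 it gave 0.47 for beta over delta and 0.42 for alpha over delta. With 1 library left out, Galr2 ran from -0.25 to 0.64 for beta over alpha, from -0.25 to 0.47 for beta over delta and from -0.65 to 0.37 for alpha over delta. The number of receptors called was 3 to 4 for beta against alpha, 3 to 4 for beta against delta and 3 to 4 for alpha against delta over the 21, and 3, 3 and 2 when tested against a log2 fold change of 1. The numbers of all genes called for beta over alpha, beta over delta and alpha over delta were 4231, 4869 and 3868. They were 1765, 2446 and 1807 with limma on log2(TPM + 1), 1819, 2480 and 1782 with limma on log2(TPM + 0.1), and 1211, 1468 and 1039 when tested against a log2 fold change of 1; the cause was not tested. For alpha over delta, 1748 were higher and 2120 lower, against 986 higher and 796 lower on log2(TPM + 0.1), a scale on which the median of all genes was 0.22 there and 0.15 for beta over delta. With upper-quartile factors the median was -0.10 for beta over alpha. Galr1 in alpha over delta also passed with limma on log2(TPM + 0.1) (2.67, adjusted p = 0.00919). Some of the list genes named lost their calls under both limma fits and against a log2 fold change of 1, and under no other alternative. They were Gnaq and Grk3 (beta over alpha) and Plcb4, Prkce, Itpr3 and Gnai2 (alpha over delta). Against a log2 fold change of 1 only, Gnai2 lost its calls of beta over alpha and beta over delta. Gnai3 (beta over delta) and Gnas (alpha over delta) were lost there only too. That setting also lost Plcb4 and Lnpep (beta over alpha) and Plcb3 (alpha over delta). Same-numbered libraries deviated together only weakly (r from -0.0002 to 0.0814 over 9 pairs, under 0.1), although each library correlated best with its own number; with the replicate number as a block, 4625, 5241 and 4294 genes were called, and the receptors called were again 4, 4 and 3. Low counts limit what can be said of Avpr1a, Avpr2, Cckar, Galr2 and, in beta libraries, Avpr1b. The floor for Galr1 in delta libraries, and the alternatives for the signalling lists, were chosen after seeing the data.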
